A study of Mus musculus with 47 samples.

Results

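The serpins are a family of protease inhibitors and related carrier proteins, followed here across 4 mouse tissues and between a methionine-restricted and a control diet. The members were all genes whose symbol is Serpin, a clade letter from a to i and a number, with at least 20 tags in all libraries of at least 1 tissue. This held for 39 of the 63 Serpin symbols among the 26583 gene symbols that the tables of all tissues share. Of the other 24 symbols, 12 had no tag in any library. By clade, 20 members were of clade a, 10 of clade b, 2 each of clades e and f, and 1 each of clades c, d, g, h and i. The mice were male C57BL/6J animals, 5 weeks old at the start, given free access to either diet over 11 weeks. They lived at 23 C and went without food for 5 h before dissection. The tested diet was low in methionine, an essential amino acid (MR, Methionine Restriction), and was set against the Control diet (CON). The tissues were inguinal white fat (IWAT), interscapular brown fat (BAT), liver and the gastrocnemius, a calf muscle, from 12 animals, 6 per diet. Each group had 6 libraries, except 5 for MR gastrocnemius, which gives 47 libraries in 8 groups. A library carries the number of its animal, so MR3113 is 1 animal in IWAT, BAT and liver, and it has no gastrocnemius library.

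A typical serpin presents a loop to its target protease, is cleaved there, and then traps the enzyme in a covalent complex as the loop inserts into the body of the protein. Hepatocytes secrete most of the serpins of plasma, among them alpha-1-antitrypsin, antithrombin and C1 inhibitor, which restrain leukocyte elastase, thrombin and complement. Other members do not inhibit proteases: some carry hormones, and Serpinh1 is a chaperone of collagen in the endoplasmic reticulum. Clade b members lack a classical signal peptide and mostly act inside cells.

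The libraries held short tags taken at the 3′ end of transcripts, 1 tag per transcript, so counts did not scale with transcript length. Library totals ran from 4887004 to 13117537 tags. Levels are given as CPM (counts per 1e6 tags), scaled by TMM factors within the tissue. By counting error alone, a count of 0 allows up to 0.229 CPM in the deepest and 0.614 CPM in the shallowest library, before that scaling. Each library was correlated with the rest of its tissue, and the median Spearman rho was under 0.8 in 4 libraries: MR3116 (0.647), CON3106 (0.628) and CON3115 (0.719) of IWAT and MR3101 of gastrocnemius (0.582). The gastrocnemius library MR3101 had a summed level of 9 skeletal muscle markers of 18887 CPM, against 101377 CPM or more in each CON library of that tissue. The 12 hepatocyte markers summed to 94969 CPM or more in every liver library, and the 7 white adipocyte markers to 26613 CPM or more in every IWAT library. In BAT, the 6 brown adipocyte markers summed to at least 5382 CPM in MR libraries and at least 3637 CPM in CON libraries. In bulk tissue, fewer cells of a type and less RNA per cell cannot be told apart.

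By mean control level, 23 members were highest in liver, 13 in IWAT and 3 in gastrocnemius, and none was highest in BAT. For some members this order rests on means near 0, as for Serpina3g, with 0.317 CPM in liver and 0.252 CPM in IWAT. The secreted members that dominate plasma had their highest levels in liver. Serpina3k, known as contrapsin, was the most abundant member there, with 6124, 8056 and 9593 CPM as the lowest, median and highest control liver, and medians of 10.5 CPM in control IWAT, 1.55 CPM in control BAT and 0.612 CPM in control gastrocnemius. Serpinc1 (antithrombin, the main inhibitor of thrombin) followed with a control mean of 3357 ± 667 CPM in liver (SD, n = 6), and then Serpina1c (an alpha-1-antitrypsin) with 1494 CPM and Serping1 (C1 inhibitor) with 1009 ± 61.7 CPM (SD, n = 6). Over both diets, Serpina3k made up 42.7% of the summed mean CPM of all members in liver and Serpinc1 22.1%.

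The hormone carriers and vaspin were also highest in liver. Serpina6, the corticosteroid-binding globulin that carries glucocorticoids in blood, had a control mean of 98.7 CPM in liver and under 1 CPM in the 3 other tissues. Serpina7, the thyroxine-binding globulin, had 76.5 CPM in liver and at most 2.45 CPM as a mean elsewhere. Serpina12, or vaspin, was first described as an adipokine of visceral fat in rats, a type of depot that was not sampled here. Serpina12 had a far higher control mean in liver, with 515 CPM, than in IWAT, with 7.40 CPM. Its median was 2.02 CPM in control IWAT and 0.516 CPM in control BAT. Serpina10 (protein Z-dependent protease inhibitor), Serpinf2 (alpha-2-antiplasmin, which blocks plasmin) and Serpind1 (heparin cofactor II) had control liver means of 176, 344 and 12.8 CPM.

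The members highest outside the liver were mostly inhibitors inside cells or in the matrix. Serpinh1 (HSP47, the collagen chaperone) had control means of 604 ± 287 CPM in IWAT, 204 ± 96.6 CPM in BAT, 76.7 ± 20.6 CPM in gastrocnemius and 22.9 ± 5.52 CPM in liver (SD, n = 6 each). Serpinb6a, an intracellular inhibitor of trypsin-like proteases, ran in another order, with 791 ± 179 CPM in gastrocnemius, 288 ± 49.7 CPM in IWAT, 110 ± 45.1 CPM in BAT and 55.0 ± 7.26 CPM in liver (SD, n = 6 each). Over both diets it was 63.1% of the summed mean CPM of all members in gastrocnemius. Serpine2 (protease nexin-1, an inhibitor of thrombin and plasminogen activators at cell surfaces) also peaked in gastrocnemius, at 152 CPM against 82.0 CPM in IWAT. Serpinb9 (an inhibitor of granzyme B) was highest in IWAT, at 72.5 CPM.

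Near relatives could differ in tissue. Within the Serpina3 group, which is expanded in the mouse, Serpina3k and Serpina3m were highest in liver, whereas Serpina3c had a control mean of 3.27 ± 0.894 CPM in liver and 104 ± 50.8 CPM in IWAT (SD, n = 6 each). Liver against IWAT gave Serpina3c a log2 fold change of -4.35 ± 0.61 (SE, edgeR, Benjamini-Hochberg adjusted p = 1.9e-06) and Serpina3k one of 7.46 ± 1.57 (adjusted p = 0.00031). Low-level members were Serpini1 (neuroserpin), at most 1.54 CPM as a control mean in any tissue, and 10 members that could be tested for diet in no tissue. None of these 10 exceeded 9.10 CPM in any library. Serpinb2 (PAI-2) reached that level in the IWAT library CON3106 and Serpinb6b reached 8.62 CPM in IWAT CON3107, and the others were Serpina3f, Serpina3g, Serpina3h, Serpina3i, Serpina9, Serpinb10-ps, Serpinb1b and Serpinb7.

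**Figure D1:**
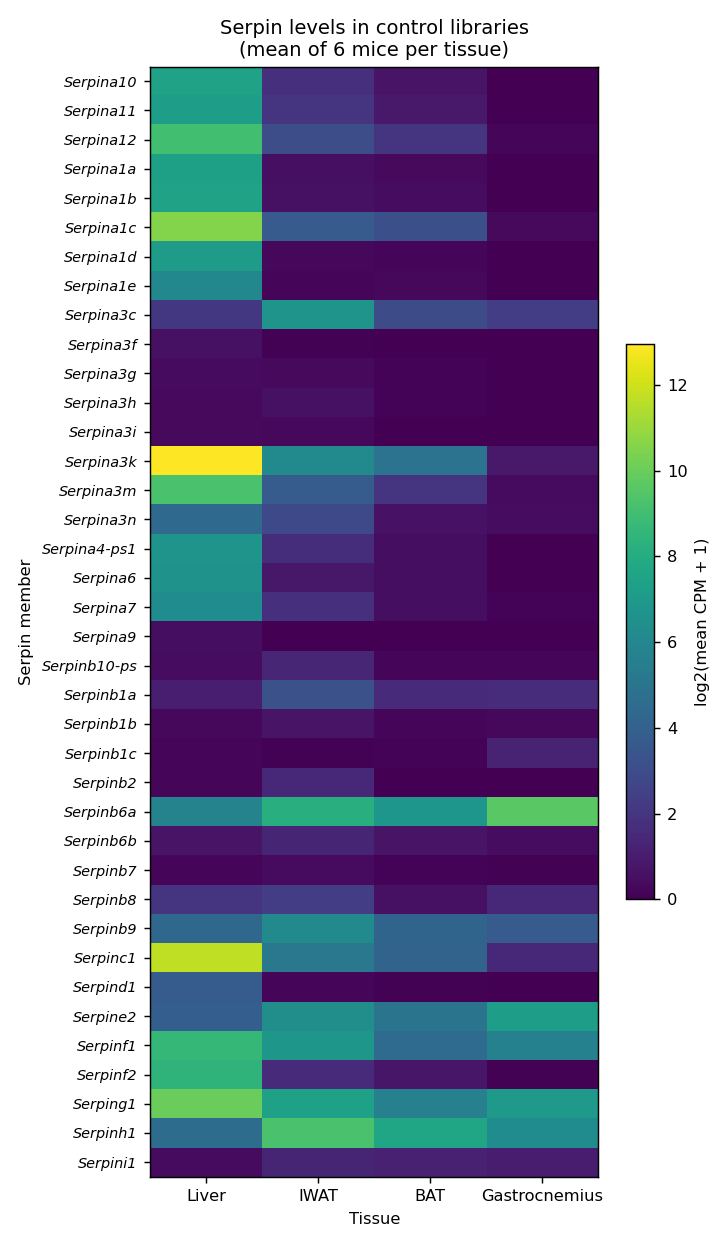
Mean level of 38 of the 39 members in the 6 control libraries of each tissue, as log2 of the mean CPM plus 1 (colour), with members down the page and tissues across. Serpina3k, Serpinc1, Serpina1c and Serping1 are brightest in liver, Serpinh1 and Serpina3c in IWAT, and Serpinb6a in gastrocnemius.

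The order of the tissues was tested in 1 edgeR quasi-likelihood fit of the 24 control libraries, where 28 members had enough tags. The scaling of this fit spans the tissues, so its fold changes differ somewhat from ratios of the CPM above. Liver against IWAT gave 19 members higher and 8 lower (Benjamini-Hochberg adjusted p under 0.05, where 25.1% of all genes were higher and 28% lower). Liver against BAT gave 20 higher and 3 lower (23.5% and 28.4% of all genes), and liver against gastrocnemius 20 higher and 5 lower (29.4% and 30.9%). The members higher in liver were thus a larger share than among all genes in each of the 3 contrasts, as a description without a test. Among the members lower in liver than in IWAT were Serpina3c, Serpinh1, Serpinb1a, Serpine2, Serpinb6a, Serpini1 and Serpinb9.

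The contrasts of the other tissues moved with few libraries, most of all those with BAT. IWAT against BAT gave 10 members higher and 0 lower (19.5% and 18.7% of all genes), BAT against gastrocnemius 11 higher and 6 lower (22.7% and 21.5%), and IWAT against gastrocnemius 19 higher and 2 lower (31.2% and 24.6%). Without the libraries IWAT CON3106, IWAT CON3115 and BAT CON3106, a choice made after seeing the data, IWAT against BAT gave 24 higher and 0 lower of 29 tested (21.8% and 21.5% of all genes), and BAT against gastrocnemius 1 higher and 6 lower (26.6% and 27.4%). Leaving out the animal of CON3106 alone gave 24 members called in IWAT against BAT and 6 in BAT against gastrocnemius, where 39.5% and 45.2% of all genes were called in either direction. Both choices left out BAT CON3106, which had high hepatocyte markers, but kept IWAT CON3103 and CON3114, which had them as well (values below). The removal was thus one-sided for the liver-type members. With the animal as a replicate block, BAT against gastrocnemius gave 3 higher and 5 lower (21% and 20.7% of all genes). The 5 members Serpinb6a, Serpinb8, Serpine2, Serping1 and Serpinh1 were called in BAT against gastrocnemius under each of these settings. Serpinh1 was higher in BAT, by 1.12 ± 0.33 on the log2 scale in the fit of all libraries (SE, edgeR adjusted p = 0.0087). The other 4 were lower, Serpinb6a by a log2 fold change of -3.13 ± 0.27 (SE, edgeR adjusted p = 2.5e-09). IWAT against gastrocnemius gave 13 members higher and 2 lower without the animal of CON3103, and the same counts without that of CON3114. Over the 6 fits of this contrast with 1 animal left out, 6346 to 7071 genes were called.

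Transcripts of the liver-type members appeared outside the liver in a few libraries, together with other hepatocyte transcripts. In BAT, CON3106 had 166 CPM of Serpina3k and 90.7 CPM of Serpinc1, against at most 5.90 CPM and 2.72 CPM in the other 11 libraries. The 12 hepatocyte markers summed to 3592 CPM in that library and to 43.3 to 128 CPM in the other 11. In IWAT, MR3113, CON3103 and CON3114 had 342, 272 and 121 CPM of Serpina3k, and the other 9 libraries had 2.17 to 17.8 CPM. Their hepatocyte marker sums were 8129, 11366 and 3736 CPM, against 262 to 1628 CPM in the other 9.

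For the 15 members with at least 50 CPM in control liver and a maximum there, Serping1 and Serpinf1 aside, the level in these libraries was set against the control liver mean. The median share was 4.77% in IWAT MR3113, 2.82% in IWAT CON3103, 1.53% in IWAT CON3114 and 2.18% in BAT CON3106. Albumin (Alb), the main secreted protein of hepatocytes, stood at 4.14%, 6.72%, 1.92% and 1.79% of its control liver mean in the same libraries. The shares of members lay within 2.86% to 7.29% in IWAT MR3113 but ran from 0.105% for Serpina1d to 14.3% for Serpina7 in IWAT CON3103. Which source the transcripts had was not tested.

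**Figure D2:**
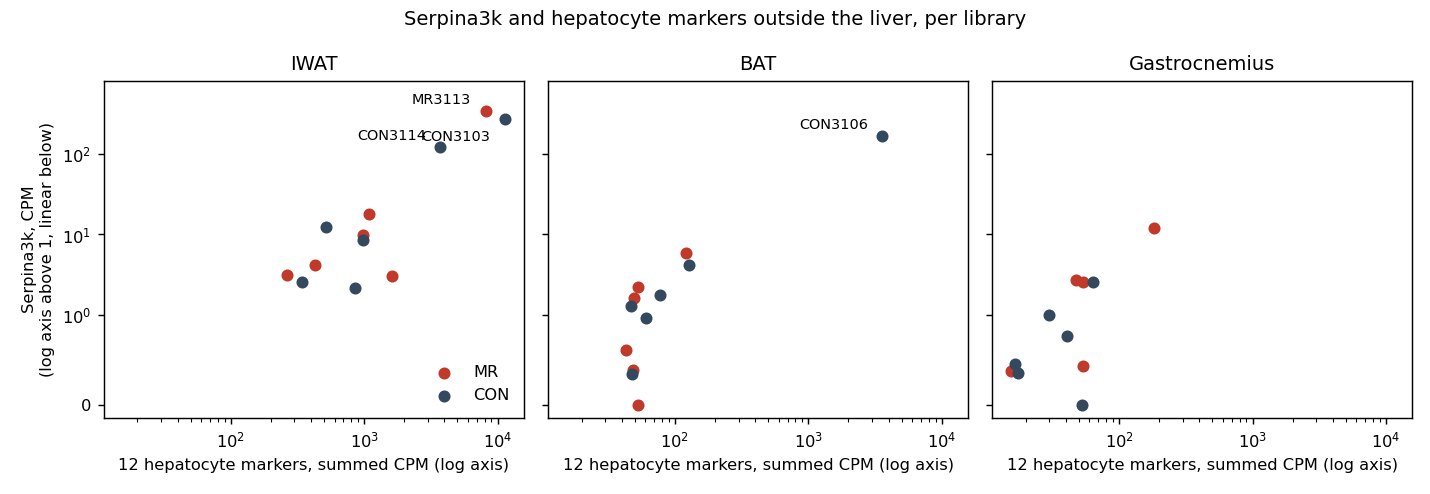
Level of Serpina3k (vertical axis, CPM, logarithmic above 1 and linear below) against the summed level of 12 hepatocyte markers (horizontal axis, CPM, logarithmic) in each library of IWAT, BAT and gastrocnemius. The labelled libraries of IWAT and BAT have marker sums of 3592 CPM or more and Serpina3k of 121 CPM or more, and the others reach at most 17.8 CPM of Serpina3k.

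Among clade b members, Serpinb1a was high in libraries that also held lymphoid transcripts. Serpinb1a, an inhibitor of neutrophil elastase and cathepsin G, had 40.5 CPM in IWAT CON3107, 22.7 CPM in IWAT MR3102, 19.0 CPM in IWAT MR3104 and 15.4 CPM in IWAT MR3113. In these 4 libraries 12 lymphocyte markers, 11 of them listed in the tables, summed to 977 to 2463 CPM, against 12.3 to 64.9 CPM in the other 8 IWAT libraries, where Serpinb1a was at most 3.50 CPM. Both were also high in gastrocnemius MR3109, with 14.2 CPM of Serpinb1a and a marker sum of 665 CPM, and in BAT CON3106, with 7.23 and 463 CPM. The 8 neutrophil markers summed to at most 9.84 CPM in any fat or muscle library, and the part of lymphoid cells in the Serpinb1a values was not tested.

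Methionine restriction was compared with control within each tissue by the edgeR quasi-likelihood test over all genes, and the number of members with enough tags was 27 in liver, 17 in IWAT, 11 in BAT and 14 in gastrocnemius. In liver, 1 member was higher under restriction and 3 were lower at a Benjamini-Hochberg adjusted p under 0.05, where 1.05% of all 10969 tested genes were higher and 1.21% lower. The member that rose was Serpina6, and those that fell were Serpina12, Serpina3k and Serpina1d. At an unadjusted p under 0.05, 1 liver member was higher and 9 were lower, against 14.5% of all genes in either direction. No member was called by this test in the other tissues.

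Vaspin showed the largest change among the called members. Serpina12 had 37.2, 114 and 142 CPM as the lowest, median and highest MR liver, against 133, 560 and 698 CPM in CON livers. The groups overlapped through the single CON library CON3107, at 133 CPM, below 1 MR library, and the other 5 CON livers lay at 482 CPM or more. The log2 fold change was -2.40 ± 0.39 (SE, n = 6 and 6, edgeR adjusted p = 0.0028). Without CON3107 it was -2.60. In IWAT, where the deposited tags of Serpina12 were few, the medians were 1.57 CPM in MR and 2.02 CPM in CON libraries, and the log2 fold change was -0.22 ± 1.06 (SE, n = 6 and 6, edgeR adjusted p = 1.0).

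Serpina3k fell in liver to 2839, 4634 and 5459 CPM in MR livers, against 6124, 8056 and 9593 CPM in CON livers (lowest, median and highest). The groups did not overlap, as for 1.29% of all genes with MR below CON. The log2 fold change was -0.81 ± 0.17 (SE, n = 6 and 6, edgeR adjusted p = 0.016). Because Serpina3k is so abundant, its difference of means, -3396 CPM, was 70.9% of the difference in the summed level of all members. That sum averaged 12159 CPM in MR livers, with a range of 10920 to 13421 CPM, and 16946 CPM in CON livers, with a range of 13851 to 18446 CPM (n = 6 each).

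Corticosteroid-binding globulin moved the other way. Serpina6 had 141, 166 and 200 CPM as the lowest, median and highest MR liver, against 59.9, 98.5 and 122 CPM in CON livers. Every MR liver was above every CON liver, as for 1.18% of all genes. The log2 fold change was 0.75 ± 0.15 (SE, n = 6 and 6, edgeR adjusted p = 0.014). The other hormone carrier, Serpina7, had medians of 86.2 CPM in MR and 74.9 CPM in CON livers, with overlapping groups and 0.10 ± 0.25 as log2 fold change (SE, n = 6 and 6, edgeR adjusted p = 0.89).

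**Figure D3:**
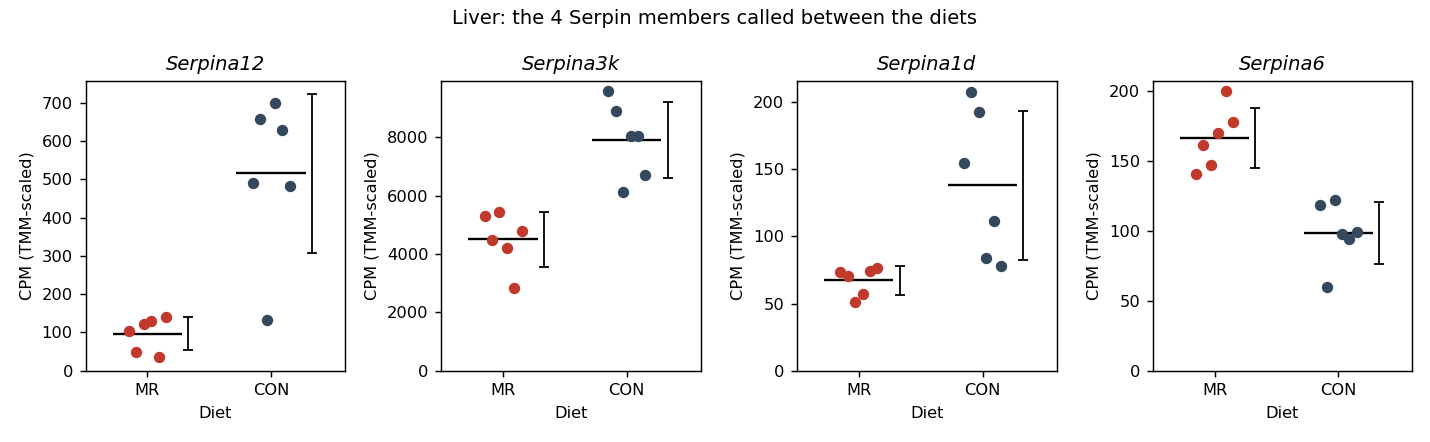
Level (CPM after TMM scaling, vertical axes from 0) of the 4 members called in liver, in each of the 6 MR and 6 CON livers. Points are libraries, horizontal lines are means and bars beside them are ± SD. Serpina3k and Serpina1d are lower in every MR liver than in any CON liver, Serpina6 is higher in every MR liver, and for Serpina12 a single CON liver, at 133 CPM, lies below the highest MR liver.

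Serpina1d belongs to the near-identical alpha-1-antitrypsin copies of the mouse. Of the 7 tags at any NlaIII site of its transcript, 4 occurred in no other gene, and its last tag was shared. The 27-base tag at the last NlaIII site (CATG, in capitals) was read from GENCODE vM1 transcripts for 34 of the 39 members, and 6 members shared it with another gene. Serpina1a, Serpina1b, Serpina1d and Serpina1e have 1 such tag in common, which is shown beside the separate tags of Serpina1c and of the other called members:
Serpina1a, Serpina1b, Serpina1d and Serpina1e: CATGagtccactgggcatcacccggat
Serpina1c: CATGgatgagacaggaacagaagctgc
Serpina3k: CATGcacataagactttggactctcag
Serpina12: CATGttcaatactcacaataaaaatca
Serpina6, first of 2 last tags: CATGctgcaactggatgaagggaatgt
Serpina6, second of 2 last tags: CATGgtgccatctgactttgagagcat
Serpina3i and Serpina3n also share 1 last tag, CATGgggcctgtgggtcagagcagctc. The labels state that tags mapping to a single gene were kept. How shared tags of the Serpina1 copies were treated was not tested, so the values of single copies are uncertain.

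With that limit, Serpina1d had 50.8, 72.2 and 76.5 CPM as the lowest, median and highest MR liver, against 77.6, 133 and 208 CPM in CON livers. The groups came close without overlapping, as 1.29% of all genes had MR below CON with no overlap. The log2 fold change was -1.04 ± 0.23 (SE, n = 6 and 6, edgeR adjusted p = 0.027). The call was lost when any of 5 libraries was left out, with adjusted p-values of 0.065 without MR3104, 0.069 without MR3109, 0.055 without CON3103, 0.054 without CON3106 and 0.056 without CON3107. The other copies differed less, with log2 fold changes of -0.46 ± 0.15 for Serpina1b, -0.40 ± 0.14 for Serpina1c, 0.12 ± 0.18 for Serpina1a and 0.25 ± 0.35 for Serpina1e (SE, edgeR adjusted p of 0.15, 0.17, 0.82 and 0.80). The 4 copies with the shared tag summed to 339, 436 and 607 CPM in MR livers and 416, 533 and 670 CPM in CON livers (lowest, median and highest), and these ranges overlapped.

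The scaling of liver libraries touched 2 of the 4 calls. With library totals in place of TMM factors, a setting added after seeing the data, the median log2 fold change of all tested liver genes shifted by 0.18, and 548 genes were higher and 79 lower. Serpina3k then had -0.62 (edgeR adjusted p = 0.051) and Serpina1d -0.88 (adjusted p = 0.051), while Serpina12 stayed at -2.19 (adjusted p = 0.0042) and Serpina6 at 0.92 (adjusted p = 0.0043). Both scalings left the direction of all 4 as it was.

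The clotting, fibrinolysis and complement inhibitors of liver showed no call. Serpinc1 had 2477, 3053 and 3693 CPM in MR livers, against 2668, 3087 and 4286 CPM in CON livers (lowest, median and highest), overlapping throughout. Its log2 fold change was -0.12 ± 0.15 and that of Serping1 was -0.12 ± 0.09 (SE, n = 6 and 6, edgeR adjusted p of 0.76 and 0.58), and both turned to 0.06 with library totals. With 1 library left out, Serpinc1 ran from -0.19 without CON3103 to -0.05 without CON3115. Serpinf2 (0.02 ± 0.10) and Serpind1 (0.01 ± 0.14) also had small values, and Serpina10 had -0.41 ± 0.17 (SE, edgeR adjusted p of 0.96, 0.99 and 0.25). Serpina3m, a further member of the Serpina3 group, had medians of 517 CPM in MR and 643 CPM in CON livers and -0.29 ± 0.17 as log2 fold change (SE, n = 6 and 6, edgeR adjusted p = 0.44). Serpina3c was low in liver, with 1.48 to 2.08 CPM in MR and 2.26 to 4.42 CPM in CON livers. These ranges did not overlap, as for 1.29% of all genes with MR below CON. Its -0.79 ± 0.20 missed the threshold (SE, edgeR adjusted p = 0.057). Serpine2, at 5.12 CPM in the median MR liver and 15.3 CPM in the median CON liver, had -1.22 ± 0.34 (SE, edgeR adjusted p = 0.082). DESeq2 called these last 2 as well, with adjusted p of 0.026 and 0.012, where it called 2.66% of all genes lower.

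All 4 called liver members lie in 1 cluster of 19 members on chromosome 12, 103616675 to 104414334 in GRCm38. Its order begins with Serpina10, Serpina6, Serpina1b and Serpina1d, and continues through Serpina12 to the Serpina3 genes. Of the 14 cluster members tested in liver, 11 had a log2 fold change under 0 and 3 over 0, with a median of -0.41. Of the 13 tested members elsewhere in the genome, 10 were under 0, with a median of -0.12, and of all genes 48.5% were under 0, with a median of 0.01. Serpina6 (103646630 to 103657218) rose while its neighbours Serpina10, with -0.41, and Serpina1b, with -0.46, did not pass the test. The other called genes span 103763587 to 103773633 for Serpina1d, 104028769 to 104044443 for Serpina12 and 104338486 to 104345739 for Serpina3k.

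Proteases and partners of the serpins were read as lists in liver, where 1.05% of all genes were called higher and 1.21% lower. Of 21 tested coagulation genes of 23 listed, 0 were higher and 1 was lower, F11 (factor XI) with a log2 fold change of -1.31. Of 23 tested complement genes of 28 listed, 0 were higher and 3 lower, C4bp (-0.59), C8g (-0.49) and C9 (-0.73). Fibrinolysis gave 1 lower of 7, S100a10 (-0.96), leukocyte and lysosomal proteases 1 lower of 12, Casp8 (-0.48), and collagen folding and processing 1 lower of 15, Ppib (-0.48), a prolyl isomerase of the endoplasmic reticulum. Among 17 tested acute phase genes 2 were higher, Lbp (0.86) and Il6ra (0.56), and 3 were lower, Orm1 (-1.57), Orm3 (-3.22) and Saa1 (-2.59). The median log2 fold changes were -0.09 for coagulation, -0.19 for fibrinolysis, -0.11 for complement, 0.03 for leukocyte and lysosomal proteases, -0.35 for collagen folding and -0.16 for acute phase, against 0.01 over all genes.

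Genes of glucocorticoid and thyroid hormone carriage and action, apart from Serpina6 and Serpina7, gave 0 higher and 1 lower of 15 tested in liver. The lower one was Thrsp, a thyroid-hormone-responsive lipogenic gene, at -1.79. Of 17 liver genes known to respond to growth hormone, 1 was higher, Igfbp2 (0.74), and 2 were lower, Cyp4a12a (-0.86) and the growth hormone receptor Ghr (-0.60). The medians were -0.01 for the hormone list and -0.25 for the growth hormone list. Each value of a named gene in these lists is a log2 fold change from the same edgeR fit with an adjusted p under 0.05. Of the 16 called genes, 9 kept the call in every fit with 1 library left out that tested them. Of these 9, Orm3 had enough tags to be tested in only 8 of 12 fits. Lbp, Il6ra, Saa1, Ppib, C8g, C9 and Casp8 lost the call in some fits, with edgeR adjusted p-values of at most 0.098. The sum of the 12 hepatocyte markers ranged from 94969 to 196314 CPM in MR and from 155703 to 268932 CPM in CON livers, with overlap, and its part in the liver values was not tested.

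**Figure D4:**
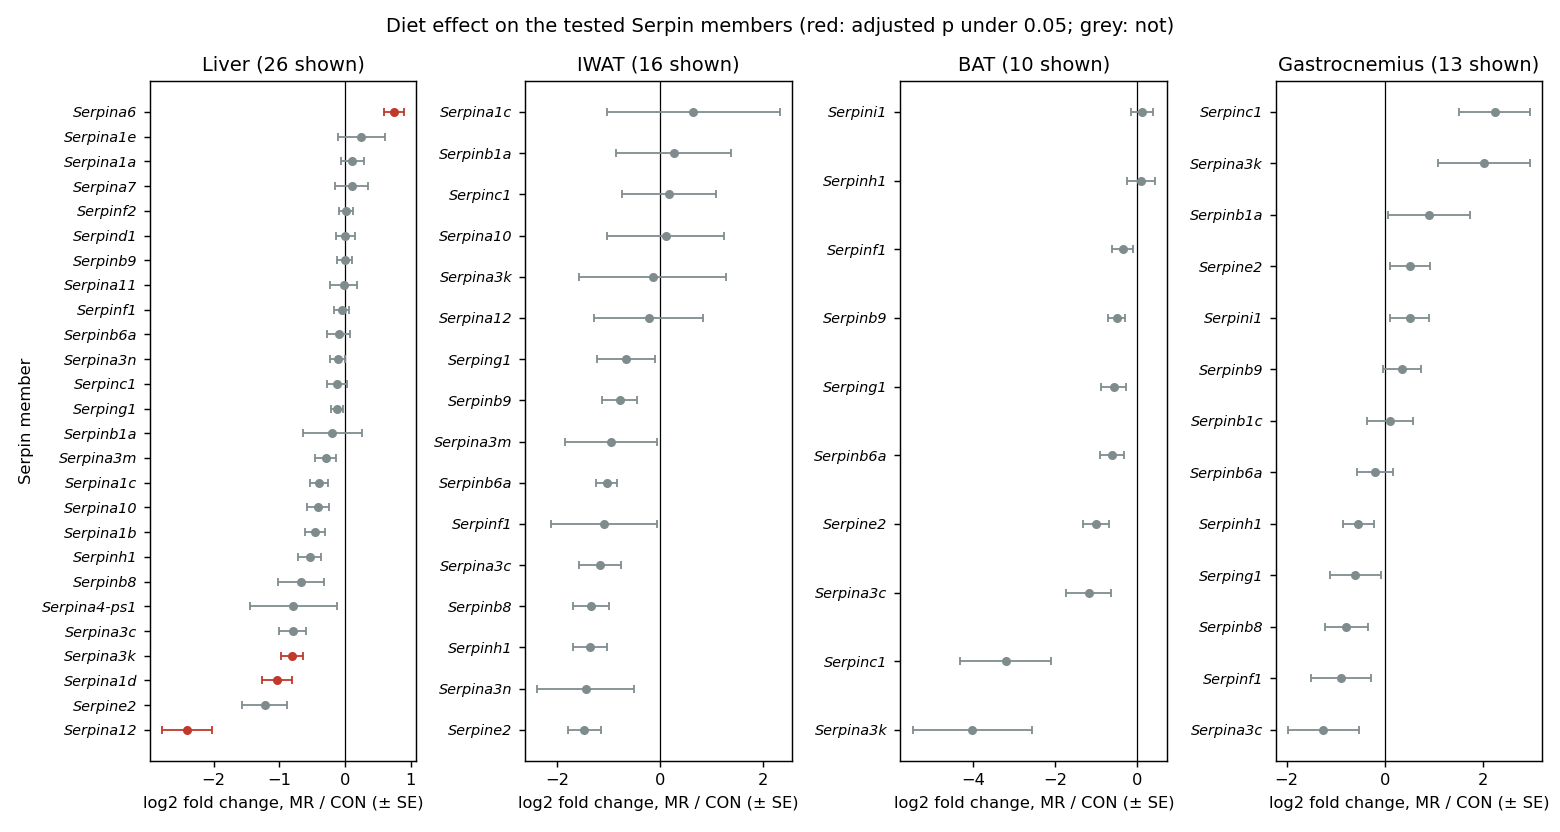
Log2 fold change of MR over CON (points) with its standard error (bars) for members tested in each tissue, with 26 shown in liver, 16 in IWAT, 10 in BAT and 13 in gastrocnemius. Red points passed a Benjamini-Hochberg adjusted p of 0.05 over all genes, which 4 members did in liver and 0 elsewhere, and the horizontal scales differ between panels.

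In IWAT most tested members had lower values under restriction but 0 of 17 were called by edgeR, where 0.00901% of 11101 genes were called higher and 0.018% lower. Of the 17, 7 were lower at an unadjusted p under 0.05 and 0 were higher, against 8.78% of all genes in either direction. The 17 members had a median log2 fold change of -0.95, and all genes one of -0.02. DESeq2 called 5 members, each lower, among them Serpinb6a, Serpinb8, Serpine2 and Serpinh1, where it called 1.3% of all genes lower. Scaling by library totals gave 1 call, Serpine2, with an edgeR adjusted p of 0.018, where 0.405% of all genes were lower.

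Serpinb6a had 120, 142 and 162 CPM as the lowest, median and highest MR library of IWAT, against 222, 291 and 363 CPM in CON libraries. The groups did not overlap, as for 0.82% of all genes with MR below CON, and the log2 fold change was -1.03 ± 0.20 (SE, n = 6 and 6, edgeR adjusted p = 0.11). Serpinh1, the collagen chaperone, had 161, 241 and 284 CPM in MR libraries and 267, 593 and 981 CPM in CON libraries (lowest, median and highest). Here CON3107 lay within the MR range, and the log2 fold change was -1.36 ± 0.34 (SE, n = 6 and 6, edgeR adjusted p = 0.16).

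Serpine2 had 19.8, 28.5 and 43.6 CPM as the lowest, median and highest MR library of IWAT, against 41.0, 81.3 and 139 CPM in CON libraries. The groups overlapped through MR3116 and CON3107, and the log2 fold change was -1.47 ± 0.33 (SE, n = 6 and 6, edgeR adjusted p = 0.14). Plat, the tissue plasminogen activator, which it inhibits, had -1.41 ± 0.40 (SE, edgeR adjusted p = 0.19).

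Serpina3c was the member of the Serpina3 group with the highest control mean in IWAT, while its control mean in BAT was 7.05 CPM. It had medians of 44.0 CPM in MR and 116 CPM in CON libraries of IWAT. The log2 fold change was -1.17 ± 0.41 (SE, n = 6 and 6, edgeR adjusted p = 0.34). Its CON3114 library, at 24.4 CPM, was below every MR library. Serpinf1 (pigment epithelium-derived factor) and Serping1 varied most with the libraries that stand apart. Serpinf1 had 0 CPM in MR3116 and 43.3 to 79.2 CPM in the other MR libraries, against 2.38 CPM in CON3106, 10.8 CPM in CON3115 and 124 to 223 CPM in the other CON libraries. Its log2 fold change over all libraries was -1.09 ± 1.03, and that of Serping1 -0.66 ± 0.56 (SE, n = 6 and 6, edgeR adjusted p of 1.0 and 0.97). Without MR3116 Serping1 had -0.43.

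Cell markers moved beside these members. The 6 fibroblast markers summed to 914, 1190 and 2218 CPM in MR libraries of IWAT, against 2210, 3408 and 7820 CPM in CON libraries (lowest, median and highest). The 2 ranges met at MR3116 and CON3107. The 6 brown adipocyte markers summed to 1675 to 4530 CPM in MR and 94.6 to 1263 CPM in CON libraries, with no overlap. Of 16 tested genes of collagen folding and processing in IWAT 0 were called in either direction, and their median log2 fold change was -0.70. Of that list, 6 genes had an unadjusted p under 0.05 and all were lower, against 8.78% of all IWAT genes in either direction. Among the 6 were Col3a1 (-1.94 ± 0.37) and Sparc (-1.34 ± 0.36), with edgeR adjusted p of 0.088 and 0.18. The part of these markers in the values of Serpinh1, Serpine2 and Serpinb6a was not tested.

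**Figure D5:**
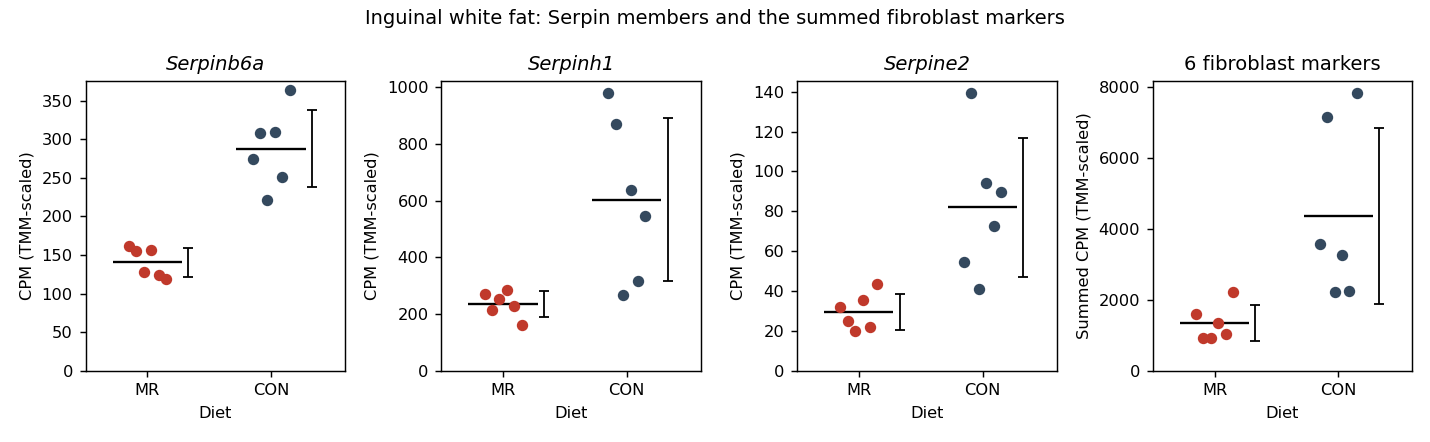
Level (CPM after TMM scaling, vertical axes from 0) of Serpinb6a, Serpinh1 and Serpine2, and the summed level of 6 fibroblast markers, in each of the 6 MR and 6 CON libraries of IWAT. Points are libraries, horizontal lines means and bars ± SD, and Serpinb6a is the only one of the 4 panels with no overlap, at most 162 CPM in MR and at least 222 CPM in CON.

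In BAT 0 of 11 tested members were called by edgeR, where 0.575% of 10791 genes were higher and 0.537% lower. At an unadjusted p under 0.05, 5 members were lower and 0 higher, against 13.6% of all genes in either direction. Serpine2 had 9.51, 15.2 and 20.9 CPM as the lowest, median and highest MR library, against 16.1, 26.1 and 57.3 CPM in CON libraries. The groups overlapped, and the log2 fold change was -1.01 ± 0.31 (SE, n = 6 and 6, edgeR adjusted p = 0.16, DESeq2 adjusted p = 0.049, where DESeq2 called 1.43% of all genes lower). Serpinb9 had medians of 10.9 CPM in MR and 15.9 CPM in CON libraries, with -0.50 ± 0.21 (SE, n = 6 and 6, edgeR adjusted p = 0.31) and -0.30 without CON3106.

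The most negative values of BAT belonged to members that were high in the library with hepatocyte transcripts. Serpina3k had 0 to 5.90 CPM in MR libraries, against 0.342 to 4.24 CPM in 5 CON libraries and 166 CPM in CON3106. Its log2 fold change of -4.02 ± 1.45 (SE, edgeR adjusted p = 0.23) was 0.01 without CON3106. Serpinc1, with -3.20 ± 1.10 (SE, edgeR adjusted p = 0.21), had 0.891 to 2.58 CPM in MR libraries, against 1.13 to 2.72 CPM in 5 CON libraries and 90.7 CPM in CON3106, and its value without that library was -0.05. The abundant members had -0.61 ± 0.29 for Serpinb6a, -0.36 ± 0.26 for Serpinf1, -0.58 ± 0.30 for Serping1 and 0.09 ± 0.34 for Serpinh1 (SE, edgeR adjusted p of 0.38, 0.60, 0.42 and 0.94). Without CON3106, Serpinf1 had -0.08 and Serping1 -0.24. The sign of Serpinh1 in BAT turned with library totals (-0.03), which shifted the median of all BAT genes by -0.10.

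In gastrocnemius 0 of 14 tested members were called, and edgeR called 0 of 11225 genes in either direction (0% higher and 0% lower). DESeq2 called 2 genes there, and 709 genes (6.32%) passed an unadjusted edgeR p of 0.05. Among members, 1 was higher and 1 lower at an unadjusted p under 0.05. Serpinb6a, which makes up most serpin tags of muscle, had 371, 387, 602, 984 and 1094 CPM in the 5 MR libraries, against 632, 746 and 1095 CPM as the lowest, median and highest of the 6 CON libraries. The log2 fold change was -0.20 ± 0.36 (SE, n = 5 and 6, edgeR adjusted p = 0.97), and ran from -0.44 without MR3102 to -0.04 without MR3101.

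Some values of muscle moved with MR3101, the library with few muscle marker tags. Serpine2 had 117, 137, 145, 154 and 533 CPM in MR libraries, the last in MR3101, against 129, 141 and 201 CPM in CON libraries (lowest, median and highest). Its log2 fold change of 0.51 ± 0.41 (SE, edgeR adjusted p = 0.94) was -0.13 without MR3101. Serpinc1 had 1.20, 2.18, 3.77, 4.47 and 29.2 CPM in MR libraries, again highest in MR3101, against 1.00 to 2.87 CPM in CON libraries, with 2.23 ± 0.72 as log2 fold change (SE, n = 5 and 6, edgeR adjusted p = 0.76) and 0.77 without MR3101.

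Serpina3k had 0.375, 0.428, 2.61, 2.74 and 12.2 CPM in MR libraries of muscle, the last in MR3101, against 0, 0.612 and 2.57 CPM in CON libraries (lowest, median and highest). The log2 fold change of 2.02 ± 0.94 (SE, n = 5 and 6, edgeR adjusted p = 0.76) was 0.80 without MR3101. For the next 4 members the groups overlapped and the log2 fold changes were negative. Serpinf1 (-0.88 ± 0.61), Serpinb8 (-0.78 ± 0.44), Serping1 (-0.60 ± 0.52) and Serpinh1 (-0.54 ± 0.31) had edgeR adjusted p-values between 0.78 and 0.96. Without MR3101, Serpinf1 had -0.57 and Serping1 -0.30, and without MR3109, Serpinb8 had -1.39. Serpinf1 and Serping1 were at 1.18 CPM and 7.85 CPM in MR3101, against at least 19.9 CPM and 75.1 CPM in the other MR libraries.

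A joint edgeR fit of the 47 libraries asked whether the diet effect of a member was unequal among tissues, with 31 members tested. By the quasi-likelihood test with Benjamini-Hochberg adjustment, 0 members were called over the 4 tissues together, where 0.524% of all genes were. In the pairs of tissues 0 members were called as well, where the share of all genes called was 0.591% for liver minus IWAT, 0.103% for liver minus BAT, 0.0295% for liver minus gastrocnemius, 0.0517% for IWAT minus BAT, 0.436% for IWAT minus gastrocnemius and 0% for BAT minus gastrocnemius. Over the 4 tissues together, 9 members had an unadjusted p under 0.05, as 13.9% of all genes did, and the smallest adjusted p was 0.12 for Serpinc1, followed by 0.14 for Serpine2. Thus the liver calls of Serpina12, Serpina3k, Serpina1d and Serpina6 were not shown to be larger than the effects in other tissues, but the test had little precision for them. Serpina6 and Serpina1d had too few tags to be tested for diet in any other tissue. Their differences between liver and the other tissues had standard errors of 1.10 to 2.55 on the log2 scale. In IWAT and BAT, Serpina12 and Serpina3k were highest in the libraries with high hepatocyte markers. The smallest pairwise adjusted p was 0.059, for Serpinc1 in BAT against gastrocnemius, the 2 tissues where single libraries carried its values. Serpine2 between IWAT and gastrocnemius had a difference of -1.90 ± 0.51 on the log2 scale (SE, edgeR adjusted p = 0.079). This passed without the animal of MR3116 (-2.24, edgeR adjusted p = 0.0076) and without that of CON3107 (-2.22, edgeR adjusted p = 0.046). Without the animal of MR3116, however, 1872 of 13709 genes were called in this pair, and 3 of 32 members. Without the 4 libraries that stand apart and BAT CON3106, the count was 1 member in liver against IWAT, Serpinf1, with a difference of 1.37 (edgeR adjusted p = 0.037), where 1.48% of all genes were called, and 0 in the other tests.

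As a share of all tags, the 39 members together made up 1.29% ± 0.125 in MR livers and 1.59% ± 0.126 in CON livers. The share was 0.0845% ± 0.0413 in MR and 0.170% ± 0.0527 in CON libraries of IWAT, and 0.0361% ± 0.00658 in MR and 0.0535% ± 0.0270 in CON libraries of BAT. In gastrocnemius it was 0.109% ± 0.0402 in MR and 0.129% ± 0.0230 in CON libraries (SD, n = 6 each, 5 for MR gastrocnemius). These sums are given as a description without a test, and single libraries weigh on them. BAT CON3106, with high hepatocyte markers, had 0.107%, against 0.0297% to 0.0505% in the other CON libraries of BAT. In IWAT, MR3113 had 0.158% and CON3103 had 0.246%, each the highest of its group and each with high hepatocyte markers. On the other scale, mean CPM after TMM scaling, Serpinh1 made up 45.7% of the difference between the diets in the summed level of IWAT, and Serpinb6a 18.2%.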

How the data were processed

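Libraries were made from 7 to 12 ng of total RNA with a SOLiD SAGE kit and sequenced as short 3′ tags, per the labels' protocols, and tags that mapped to a single RefSeq gene were kept. The build is mm10 (GRCm38.p1) and DESeq was used, per the submitters' processing notes, while no label names the aligner, the counting tool or the version of DESeq. The deposited counts are raw whole-number tags per gene symbol, in 1 table per tissue. The authors also deposited a normalized signal, which on its values is the count divided by 1 factor per library, and it was used as an alternative on a log2 scale with a pseudocount of 1 or 0.5. Of the gastrocnemius symbols, 25 have the form of dates, so joint fits used 26583 shared symbols. No 2 libraries held identical values.

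Each tissue was fitted with edgeR 4.0.16 in R 4.3.3 (filterByExpr defaults, TMM factors, quasi-likelihood F test, Benjamini-Hochberg adjustment over all genes, threshold 0.05). Each animal is a replicate. Standard errors were derived from the F statistic and the fold change. Tissue contrasts used the 24 control libraries, and the difference of diet effects all 47. Libraries of 1 number come from the same animal, so joint fits were repeated with a replicate block by animal, while no animal contributes to both diets of a tissue. Same-animal deviations had mean correlations of -0.076 to 0.063 over the 6 pairs of tissues. Other alternatives were DESeq2 1.42.0, limma 3.58.1 voom, RLE factors, library totals, other count filters and each library or animal left out. The scripts were tested on simulated data.

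Members followed across the alternative settings were those called in any tissue, the 4 with the smallest p and the 5 with the highest mean of each tissue. Values of some other members are given as well, and the rest appear as ranges and counts. The values of 1 member are not reported here, though counts and sums include it. The members and lists were chosen with earlier results of these data known. Tags came from GENCODE vM1 transcripts and positions from RefSeq genes on GRCm38. Low counts limit precision, and 10 members could not be tested in any tissue.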

Additional observations from a re-analysis of the deposited data

Results flagged for a closer look

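Of 60 groups of 5 or 6 libraries of the named members, 8 had a highest or lowest library far from the rest by Dixon's criterion. Chance alone meets it in about 1 in 20 groups only for independent groups of normally distributed values. CPM values need not be so distributed and the groups share libraries, so 8 of 60 cannot be read against that rate. In BAT, CON3106 was highest among CON libraries for Serpina3k (166 CPM, next 4.24 CPM), Serpinc1 (90.7 CPM, next 2.72 CPM) and Serpinb9 (27.7 CPM, next 16.6 CPM), in the library with 3592 CPM of hepatocyte markers and 463 CPM of lymphocyte markers. In gastrocnemius, MR3101 was highest among MR libraries for Serpine2 (533 CPM, next 154 CPM), Serpinc1 (29.2 CPM, next 4.47 CPM) and Serpina3k (12.2 CPM, next 2.74 CPM). Its skeletal muscle marker sum was 18887 CPM. Serpinb8 stood out in gastrocnemius MR3109 (2.25 CPM, next 0.785 CPM), the library with 665 CPM of lymphocyte markers. In IWAT, MR3116 was lowest among MR libraries for Serping1 (8.86 CPM, next 108 CPM). The part of the markers in these values was not tested.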

How the results depend on the processing

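Of 591 settings of 30 member values, 571 kept direction and side of the threshold, 7 lost the call, 5 gained it and 8 reversed. Of 530 settings of 34 counts, 421 stayed within 1.5 times. The cause of the changes was not tested.

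DESeq2 called 310 genes and 5 members in IWAT (edgeR 3 and 0), 317 genes and 1 member in BAT (120 and 0), 490 genes in liver (248) and 2 in gastrocnemius (0). In IWAT, voom gave 7 genes, the authors' signal 12 with a pseudocount of 1 and 10 with 0.5, and leaving out CON3106, CON3115 and MR3116 gave 0. Library totals, added after seeing the data for diet within a tissue, gave 67 genes and 1 member in IWAT and 627 genes and 2 members in liver. They reversed Serpinc1 (0.064) and Serping1 (0.057) in liver and Serpinh1 in BAT (-0.032), and split the calls of BAT into 39 higher and 64 lower (62 and 58 with TMM).

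The replicate block by animal gave 8 members in BAT against gastrocnemius (17 without it) and moved no other count of members by over 1.5 times. For the difference of diet effects it gave 41 genes over all tissues (71), 1 for liver minus gastrocnemius (4) and 29 for IWAT minus gastrocnemius (59). With no filter these were 39 over all tissues, 46 for liver minus IWAT (80) and 16 for IWAT minus gastrocnemius. Library totals gave 152 for liver minus IWAT, 16 for IWAT minus BAT (7) and 1 for BAT minus gastrocnemius (0), and RLE factors 48 genes and 1 member, Serpinc1, there. Without the libraries that stand apart and BAT CON3106, 205 genes were called over all tissues, 203 and 1 member for liver minus IWAT, 51 for liver minus BAT (14), 15 for liver minus gastrocnemius and 73 for IWAT minus BAT, and in controls 24 members for IWAT against BAT (10) and 7 for BAT against gastrocnemius. IWAT CON3103 and CON3114, with high hepatocyte markers, stayed in these fits.

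With 1 library left out, genes called ran from 0 to 41 in IWAT, 50 to 111 in BAT and 158 to 322 in liver. Serpina3k in BAT ran from -4.93 to 0.0093 (without CON3106), Serpine2 in gastrocnemius from -0.13 (without MR3101) to 0.66, and Serpinh1 in BAT from -0.18 (without MR3116) to 0.30, with -0.06 without CON3112 and -0.02 without CON3114. With 1 animal left out, members called ran from 8 to 24 for IWAT against BAT and 6 to 15 for BAT against gastrocnemius. For the difference of diet effects, genes ran from 23 to 847 over all tissues (members 0 to 1), 30 to 135 for liver minus IWAT, 9 to 18 for liver minus BAT, 0 to 5 for liver minus gastrocnemius, 1 to 221 for IWAT minus BAT (members 0 to 3), 4 to 1872 for IWAT minus gastrocnemius (members 0 to 3) and 0 to 175 for BAT minus gastrocnemius (members 0 to 2).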

Other observations

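Outside the liver, 4 genes of the partner lists were called in BAT and 1 in IWAT. In BAT, 0.575% of all genes were called higher and 0.537% lower, and in IWAT 0.00901% and 0.018%. The BAT calls were 1 higher and 1 lower of 9 tested acute phase genes, 1 higher of 13 hormone genes and 1 higher of 10 growth hormone genes. The IWAT call was 1 lower of 10 acute phase genes, and the other lists had none in either tissue. Lbp, which encodes the lipopolysaccharide-binding protein, was lower under restriction in IWAT (-2.83) and in BAT (-1.61), whereas it was higher in liver (0.86), each a log2 fold change with an edgeR adjusted p under 0.05. With 1 library left out, the IWAT call of Lbp was kept in 2 of 12 fits, without MR3116 or without CON3114, with adjusted p-values from 0.025 to 0.11. Its liver call was kept in 4 of 12, with 0.0032 to 0.070, and its BAT call was lost without MR3104 (0.054). In BAT, Orm3 (1.44), the deiodinase gene Dio2 (1.31), which activates thyroid hormone, and Elovl3 (1.43) were higher, and of these Dio2 lost the call without CON3107 (adjusted p = 0.0503). Orm3 was lower in liver (-3.22), where it had enough tags in only 8 of 12 fits with 1 library left out. In the joint edgeR fit, the diet effect on Lbp differed between liver and IWAT, by 3.64 ± 0.42 on the log2 scale (SE, adjusted p = 5.4e-07), and between liver and BAT, by 2.42 ± 0.42 (SE, adjusted p = 0.0013). That on Orm3 differed between liver and BAT, by -4.70 ± 0.67 (SE, adjusted p = 0.00018). These 3 differences passed in each of 12 fits with 1 animal left out. In the fibrinolysis list of IWAT, S100a10, which binds plasminogen activators at the cell surface with annexin A2, had -0.88 ± 0.21 (SE, edgeR adjusted p = 0.16). Of the 5 tested genes of this list, 3 had an unadjusted p under 0.05, all with lower values, against 8.78% of all IWAT genes in either direction. No gene of the lists was called in gastrocnemius, where edgeR called 0 of 11225 genes.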
